A study of Mus musculus with 53 samples.

Results

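Bergmann glia-like cells of the mouse cerebellum at postnatal day 7 (P7) were taken as cell barcodes by the transcripts they held. They held at least 3 of 6 marker genes (Gdf10, Tnc, Gria1, Slc1a3, Aldh1l1 and Fabp7). They held at most 1 of 4 astrocyte genes used as a limit (Gfap, Aqp4, Agt and Slc39a12). Each barcode also had to hold 1000 to 20000 UMIs (unique molecular identifiers, each standing for 1 captured transcript) and at least 500 detected genes. The rule took 1934 of the 62348 barcodes within these depth limits, of 2894626 barcodes deposited for P7. Members were thus chosen by measured UMIs of these 10 genes, whose P7 levels are given as description, with no test. The share of barcodes that meet the rule is compared between genotypes below, and it rests on the same 10 genes.

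The study deleted Insm1, or Tead1 and Tead2 together, with Atoh1Cre and measured the cerebellum by several genome-wide assays. At P7, single cells were profiled by split-pool barcoding in 10 libraries, each from the cerebellum of 1 pup without pooling. The groups were Insm1fl/fl controls (n = 2), Atoh1Cre;Insm1fl/fl mutants (n = 3), Tead1fl/fl;Tead2fl/fl controls (n = 2) and Atoh1Cre;Tead1fl/fl;Tead2fl/fl mutants (n = 3). All pups carried the floxed alleles, and no group with Cre alone was used here. Library 1 of each group came from all lobules, and libraries 2 and 3 from cerebella without lobules IX and X. At P2, bulk RNA was taken from whole cerebella, with 4 controls and 4 mutants for Insm1, and 3 controls and 4 mutants for Tead1/2. Total UMIs per P7 library ran from 98416728 to 226631912, and no barcode was shared between libraries. Members had a median of 7511 to 11574 UMIs per library, against 5374 to 8113 in the other barcodes.

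Bergmann glia are astrocytes whose cell bodies lie beside Purkinje cells and whose radial fibres reach the pial surface. Their fibres guide migrating granule neurons, and their processes wrap Purkinje cell synapses and clear glutamate. They arise from the ventricular zone, whereas Atoh1-driven Cre acts in the rhombic lip lineage that makes granule neurons. INSM1 is a zinc-finger repressor of neuroendocrine and neuronal progenitors, and TEAD proteins are the DNA-binding partners of YAP and TAZ in the Hippo pathway.

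Notch signals through the DNA-binding protein RBPJ and is known to act in Bergmann glia, so the promoters of the 6 markers that define the members together were searched for the RBPJ core TGGGAA or its reverse complement TTCCCA. Sequences were the 250 bases before the transcription start in RefSeq (GRCm38.p6), in which 5 of the 6 markers were matched. The core was present for 3 of these 5 (Tnc, Aldh1l1 and Fabp7), and 7094 of all 32851 promoters (21.6%) held it. The first count is by gene and the second by promoter, and Tnc had 2 promoters in which to match. The match began 249 bases before the start of Fabp7, 150 bases before that of Aldh1l1, and 81 bases before the proximal of the 2 Tnc starts. The 3 windows are shown 5′ to 3′ on the strand of the gene, with the match in capitals: Fabp7, which encodes a fatty acid binding protein of radial glia, at chr10:57784673-57784922 (plus strand); Aldh1l1, an astrocyte folate enzyme, at chr6:90550543-90550792 (plus strand); and Tnc, the matrix protein tenascin C, at chr4:64046937-64047186 (minus strand).
Fabp7: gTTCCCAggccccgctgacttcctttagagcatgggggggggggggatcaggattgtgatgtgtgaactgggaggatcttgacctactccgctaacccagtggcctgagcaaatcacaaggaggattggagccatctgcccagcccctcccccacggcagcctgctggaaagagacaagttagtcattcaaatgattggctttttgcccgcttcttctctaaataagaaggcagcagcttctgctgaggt
Aldh1l1: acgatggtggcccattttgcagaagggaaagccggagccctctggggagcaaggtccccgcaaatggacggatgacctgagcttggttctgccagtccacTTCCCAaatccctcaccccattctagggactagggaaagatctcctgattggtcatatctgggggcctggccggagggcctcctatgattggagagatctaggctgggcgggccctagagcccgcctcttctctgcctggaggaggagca
Tnc: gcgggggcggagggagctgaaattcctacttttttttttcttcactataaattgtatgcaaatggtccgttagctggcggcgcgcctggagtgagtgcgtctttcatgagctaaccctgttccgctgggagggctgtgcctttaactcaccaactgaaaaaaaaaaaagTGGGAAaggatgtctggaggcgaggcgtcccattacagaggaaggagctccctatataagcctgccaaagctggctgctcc

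The members were not uniform. Of the 1934, 800 held exactly 3 of the 6 markers, 304 held 4, 289 held 5 and 541 held all 6. Just outside the rule, 3743 barcodes held 2. The composition differed between the 2 alleles' libraries: members with exactly 3 markers made up 26.9% to 36.7% of members in the 5 Insm1 libraries and 50.9% to 66.0% in the 5 Tead1/2 libraries, controls included. Levels are given in CPM (UMIs of a gene scaled to a common total over the summed barcodes). Gdf10, a secreted factor, had 10.6 CPM in barcodes with 2 markers, 21.8 with 3, 25.8 with 4, 89.9 with 5 and 346 with 6. Gdf10 is itself among the 6 markers counted, so a rise with their number is built into the count. Its levels are thus a description and cannot show whether the members were uniform.

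**Figure D1:**
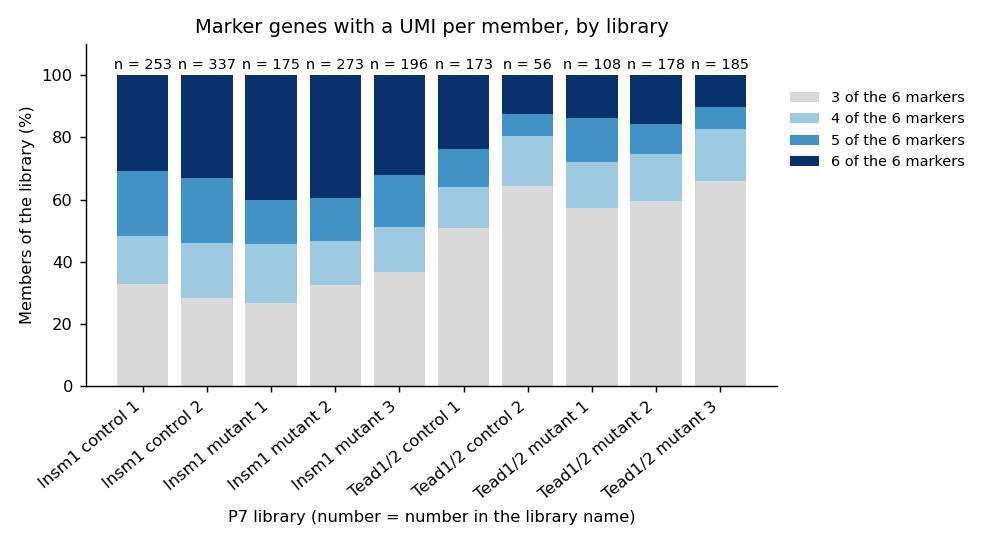
Share of the members of each P7 library (y axis, percent) that held 3, 4, 5 or 6 of the 6 marker genes, with the number of members above each bar. Members with exactly 3 markers are 26.9% to 36.7% of the bars of the 5 Insm1 libraries and 50.9% to 66.0% of the bars of the 5 Tead1/2 libraries.

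Levels of genes that the rule did not use also differed with the number of markers, in barcodes pooled over libraries. The Tead1/2 libraries held more of the members with 3 markers, so allele and number of markers are mixed in these pooled levels. Hopx, a homeodomain protein of Bergmann glia, stood at 4.41 CPM in members with 3 markers and at 82.9 CPM in members with 6, and per library at 1.03 to 10.2 and 47.3 to 115.5 CPM. Notch3, a Notch receptor, went from 21.8 to 168 CPM, Ptprz1, a receptor phosphatase of glia, from 542 to 2010 CPM, and Grm3, a metabotropic glutamate receptor, from 148 to 2110 CPM. Nphs1, which encodes nephrin, went the other way, with 142 CPM at 3 markers, 208 CPM at 4 and 38.7 CPM at 6. Its level in members was 77.7 to 107 CPM in the Insm1 libraries and 121 to 268 CPM in the Tead1/2 libraries. Among members, transcripts of other cell types were lower at 6 markers than at 3. Pdgfra of oligodendrocyte progenitors stood at 68.5, 178 and 216 CPM with 0, 2 and 3 markers and at 35.1 CPM with 6. The fibroblast collagen Col1a2 stood at 5.59, 292 and 211 CPM with 0, 2 and 3 markers, 30.8 CPM with 5 and 44.5 CPM with 6. The neuronal splicing factor Rbfox3 went from 2026 CPM with 0 markers to 1118 CPM with 3 and 633 CPM with 6. Members with 3 markers lay nearer to barcodes with 2 markers than to members with 6 in Hopx and Rbfox3. Barcodes with 2 markers had 1.80 CPM of Hopx and 1364 CPM of Rbfox3. They also had 8.2 CPM of Notch3, 269 CPM of Ptprz1 and 47.8 CPM of Nphs1, each below the members with 3.

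**Figure D2:**
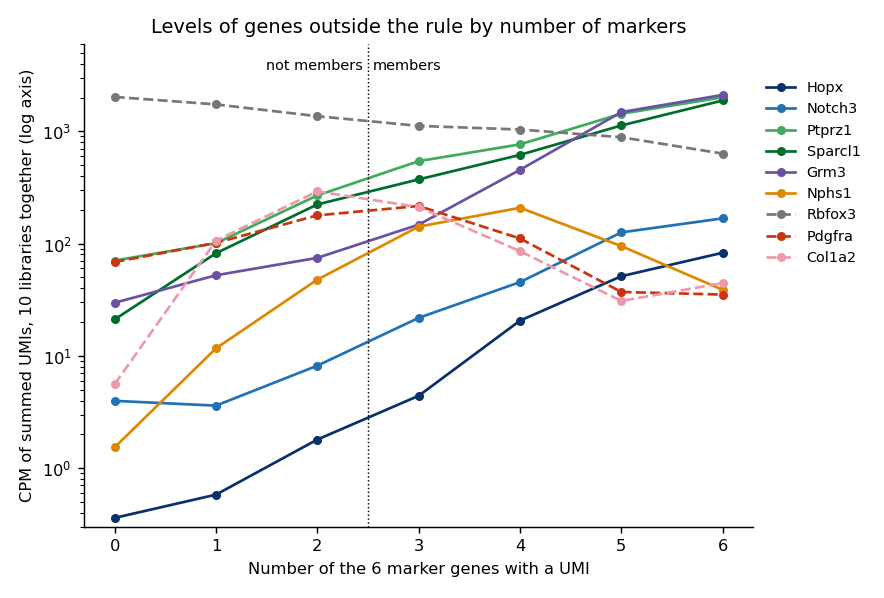
Level of 9 genes outside the rule (y axis, CPM of the summed UMIs of all 10 libraries, log scale) in barcodes with 0 to 6 of the marker genes (x axis), with the dotted line at the limit of membership. Hopx, Notch3, Ptprz1, Sparcl1 and Grm3 are highest at 6 markers, and Rbfox3, Pdgfra and Col1a2 are lower at 6 markers than at 3.

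The limit on Gfap, Aqp4, Agt and Slc39a12 removed many barcodes that carried the Bergmann glia markers. Of barcodes with at least 3 markers, 47.3% to 75.5% per library held 2 or more of the 4 limiting genes. These 3240 barcodes are called astrocyte-like here by that limit alone. By genotype they were 55.6% and 47.3% in the Insm1 controls and 68.75%, 63.65% and 62.2% in the mutants, and 59.7% and 71.1%, against 75.45%, 66.5% and 65.7%, for Tead1/2. Since the rule's markers selected both sets, their levels are a description. The 6 markers summed to 7086 to 9121 CPM per library in astrocyte-like barcodes and to 2869 to 7159 CPM in members. Hopx, outside the rule, had group means of 66.9 to 74.1 CPM in astrocyte-like barcodes, against 33.11 ± 14.95 CPM (SD, n = 10 libraries) in members. Gdf10 reached group means of 163 to 191 CPM in astrocyte-like barcodes, against 66.9 to 162 CPM per library in members. Gfap, the astrocyte intermediate filament, stood at 1.06 to 9.72 CPM in members, and Aqp4, the water channel of astrocyte endfeet, at 207 to 537 CPM. Aqp4 was higher in members than in the other barcodes in 9 of 10 libraries, and stood at 66.35 CPM in members with 3 markers and 888 CPM in those with 6. Per library, 30 to 231 members held 1 limiting gene, and it was Aqp4 in 27 to 220 of them. The members are called Bergmann glia-like by their rule alone.

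Against the 60414 other barcodes of the same libraries, astrocyte-like ones included, 12 of 14 Bergmann glia markers outside the rule were higher in members on average. The mean log2 ratio over 10 libraries was 2.22 for Hopx, 2.13 for the lipid enzyme Acsbg1, 2.09 for the protease inhibitor Timp4, 2.06 for Ptprz1, 1.61 for Ttyh1 and 1.40 for the glutamate transporter Slc1a2, each higher in 10 of 10 libraries. For scale, 2236 genes had at least 100 CPM in members, a level that Hopx did not reach. Of these, 426 outside the rule were higher in members in 10 of 10 libraries. Sox9, Zeb2 and Gria4 were higher in 9 of 10. Septin4 (mean log2 ratio -0.02, higher in 6 of 10) and Dao (-0.10, higher in 2 of 10) were not raised. Among all genes of at least 100 CPM outside the rule, leaving out the predicted genes Gm31135 (2.61) and Gm29266 (2.30), Nphs1 led with 3.15, followed by the proteoglycan Spock3 (2.79), Grm3 (2.74), the actin regulator Shroom3 (2.73), Scube2 (2.49), the adhesion receptor Adgrg6 (2.47), the ciliogenesis factor Rfx4 (2.40), the retinoic acid hydroxylase Cyp26b1 (2.34) and the potassium channel Kcnn3 (2.26). Among genes outside the rule, those whose detection after thinning to 2000 UMIs went most closely with membership were Sparcl1 (phi coefficient 0.277), Ptprz1 (0.260), the endothelin receptor Ednrb (0.258), Grm3 (0.256) and Rfx4 (0.243), over 60991 barcodes of 10 libraries. The barcodes were pooled, so differences between libraries can enter this close order. Ratios and phi set members against all other barcodes together, so they do not show levels above those of astrocyte-like barcodes.

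Neuronal transcripts were present in the members. Rbfox3 had a UMI in 53.7% to 82.1% of members per library, and in 22.1% to 64.5% of microglia-like barcodes, which should lack it, at median depths of 7511 to 11574 and 4643 to 6922 UMIs. The summed level of 12 granule neuron markers was 2501 to 4240 CPM in members, 3633 to 6888 CPM in the other barcodes and 1525 to 3996 CPM in microglia-like barcodes. The doublet caller Scrublet marked 44.4% to 61.7% of members and 14.3% to 37.1% of the other barcodes in 8 libraries, and none in Insm1 mutant 1 and Tead1/2 control 2. No call was therefore applied, and the part of doublets in the members' neuronal transcripts was not tested.

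Whether the mutants had more or fewer Bergmann glia-like cells was asked with each barcode thinned to 2000 UMIs, since detection of 3 markers depends on depth. The limiting genes were also counted after thinning, so astrocyte-like barcodes could then meet the rule. The thinned set is thus not the members. The number meeting the rule went from 253 to 289 and 337 to 333 in Insm1 controls. In Insm1 mutants it went from 175 to 258, 273 to 354 and 196 to 233. In Tead1/2 controls it went from 173 to 152 and 56 to 58. In Tead1/2 mutants it went from 108 to 123, 178 to 157 and 185 to 110. The share of barcodes that met the marker rule was 3.60% and 5.33% in the Insm1 controls and 4.38%, 5.97% and 7.09% in the Insm1 mutants. In the Tead1/2 controls it was 1.97% and 1.16%, and in the Tead1/2 mutants 1.92%, 2.30% and 1.94%. The groups of each allele overlapped. The mean was 1.35 points higher in Insm1 mutants (two-sided exact permutation p = 0.4, and 0.366 points at 4000 UMIs and 0.25 points without thinning) and 0.487 points higher in Tead1/2 mutants (p = 0.3), in a design of 10 arrangements that cannot go below 0.1. Over both alleles the difference was 0.917 points (exact permutation within alleles, p = 0.2, smallest possible 0.01), and did not pass. With barcodes of 3 or more muscle genes left out of the denominator, it was 1.44 points (exact permutation p = 0.07), and with 2 or more markers 1.68 points (exact permutation p = 0.07). Under these settings the Tead1/2 mutants no longer overlapped their controls, at 2.27%, 3.03% and 2.35% against 1.98% and 1.17%, and at 3.76%, 4.44% and 4.49% against 3.03% and 2.15% (exact permutation p = 0.1 in both, the smallest possible). Astrocyte-like barcodes, which the limiting genes kept out of the members, made up 3.87% and 4.67% of unthinned barcodes in the Insm1 controls and 6.45%, 7.88% and 9.48% in the mutants. For Tead1/2 they made up 3.24% and 2.73% against 5.10%, 5.07% and 6.12%. Neither allele overlapped, the difference was not tested, and the member share therefore does not describe all barcodes with the 6 markers. Within the all-lobule libraries the share was 3.60% in the control and 4.38% in the mutant for Insm1, and 1.97% and 1.92% for Tead1/2. Without lobules IX and X it was 5.33% against 5.97% and 7.09% for Insm1, and 1.16% against 2.30% and 1.94% for Tead1/2. Without thinning, the shares were 3.09% and 5.20%, against 2.93%, 4.50% and 5.75%, for Insm1, and 2.19% and 1.11%, against 1.66%, 2.547% and 3.20%, for Tead1/2.

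**Figure D3:**
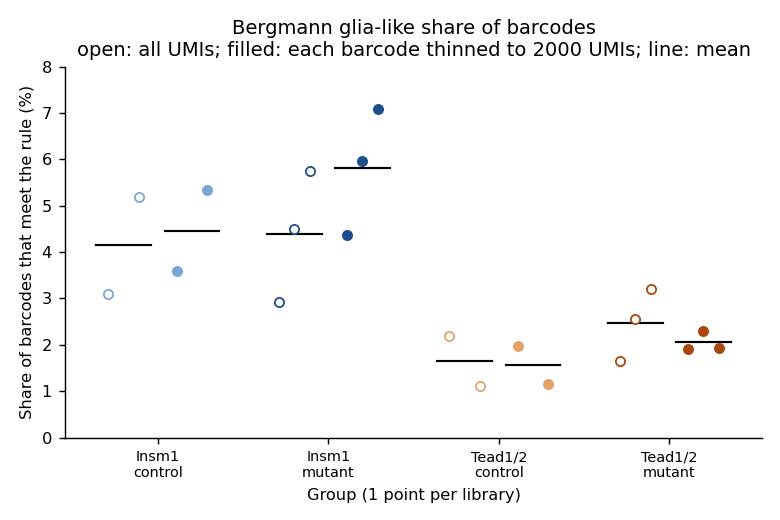
Share of barcodes that met the Bergmann glia-like rule (y axis, percent) in each P7 library by group, from all UMIs (open points) and after thinning each barcode to 2000 UMIs (filled points), with lines at the group means. After thinning, the 5 Insm1 libraries (3.60% and above) lie above the 5 Tead1/2 libraries (2.30% and below), and mutants overlap the controls of their own allele.

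Changes within the members were tested on UMIs summed per library, with edgeR's quasi-likelihood test over 12313 genes and Benjamini-Hochberg adjustment, and values below are TMM-scaled CPM. The targeted genes were examined as a check of the labels. Insm1 stood at 32.1 and 31.9 CPM in control members of the Insm1 allele, and was lower, at 9.48, 4.02 and 4.64 CPM, in mutant members (log2 change -2.46 ± 0.36 SE, adjusted p = 0.0012). The same fall, -2.47, was measured in all other barcodes. Tead2 stood at 31.3 and 46.2 CPM in the Tead1/2 controls and at 15.02, 12.1 and 9.53 CPM in the Tead1/2 mutants (-1.63 ± 0.26, adjusted p = 0.0015), but missed the threshold with at least 4 markers (adjusted p = 0.10), at least 5 (-1.33, adjusted p = 0.18) and at 10000 UMIs or fewer (adjusted p = 0.40). At 10000 UMIs or fewer Insm1 missed it too (-2.56, adjusted p = 0.099). Tead1 was higher in the mutants, with 733 and 813 CPM in controls and 1123, 1255 and 964 CPM in mutants (0.53 ± 0.13, adjusted p = 0.022). Its call was lost without Tead1/2 control 1, control 2 or mutant 2 (highest adjusted p = 0.16), at 10000 UMIs or fewer (0.42), with no limiting gene (0.14) and without the highest doublet scores (0.32). Gene totals include transcript outside the floxed segment, whose position is not given in the sources used here, so a total that does not fall is no check of a deletion.

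In members, 420 genes were called in Insm1 mutants (3.41% of those tested, 249 or 2.02% higher and 171 or 1.39% lower), 802 in Tead1/2 mutants (6.51%, 450 or 3.65% higher and 352 or 2.86% lower), and 1212 for the mean of both effects (9.84%, 681 or 5.53% higher and 531 or 4.31% lower). Without 1 library at a time these counts ran from 191 to 481, from 403 to 814, and from 816 to 1205. The Insm1 count was 191 without Insm1 control 1, 199 without control 2 and 258 without mutant 2, and the Tead1/2 count was 430 without Tead1/2 control 1 and 403 without control 2. With at least 5 markers, a choice made after the data were seen, the counts were 233, 302 and 620. By Xist and Y-linked transcripts, both Tead1/2 controls and Tead1/2 mutant 3 were female, and Tead1/2 mutants 1 and 2 were male. Insm1 control 1 and Insm1 mutants 2 and 3 were female, and Insm1 control 2 and mutant 1 were male. Sex is thus partly mixed with Tead1/2 genotype. With a sex term the counts were 424, 626 and 1171. Lists below leave out the genes of the rule, and the median over all genes tested was 0.01 on the log2 scale.

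Of 19 radial scaffold, adhesion and matrix genes tested, 7 rose and none fell for the mean of both effects (median log2 change 0.31, lowest -0.24), against 5.53% of all genes higher. In Insm1 mutants alone 2 of 19 rose and in Tead1/2 mutants 6 of 19, and 0 of either kept the call without each library. Of the 7, Nes, Nid1, Bcan and Col4a2 kept the call without each library in turn. Nes encodes nestin, an intermediate filament of radial glia and of other cells. It stood at 29.3 and 35.6 CPM in Insm1 controls and at 56.25, 66.3 and 70.1 CPM in Insm1 mutants, and at 59.25 and 66.9 CPM in Tead1/2 controls and at 88.4, 136 and 108 CPM in Tead1/2 mutants. No mutant overlapped the controls of its allele (mean log2 change 0.92 ± 0.14, adjusted p = 4.4e-04). Nid1, the basement membrane linker nidogen, went from 202 and 253 to 346, 284 and 356 CPM with Insm1 loss and from 183 and 127.5 to 231.5, 252 and 264 CPM with Tead1/2 loss, again without overlap (0.58 ± 0.11, adjusted p = 0.0031). Bcan, the proteoglycan brevican, went from 34.6 and 35.6 to 61.9, 45.4 and 68.4 CPM and from 34.2 and 28.7 to 53.9, 50.0 and 54.0 CPM (0.71 ± 0.14, adjusted p = 0.0032). In members with at least 5 markers, Nes (1.26, adjusted p = 1.0e-04), Nid1 (0.63, adjusted p = 0.0015) and Bcan (1.13, adjusted p = 0.0028) were still called, and Col4a2 was not (0.43, adjusted p = 0.34). In members of at most 10000 UMIs none of the 3 passed, with 0.62 (adjusted p = 0.23) for Nes, 0.48 (adjusted p = 0.12) for Nid1 and 0.95 (adjusted p = 0.058) for Bcan. In members with no limiting gene Nid1 (0.98, adjusted p = 0.063) and Bcan (0.30, adjusted p = 0.66) missed the threshold. Markers of meningeal fibroblasts, which also make matrix, summed to 129.5 to 569 CPM in control members and to 197.5 to 889 CPM in mutant members, with none of the 6 at 0 in any library. Mural cell markers summed to 49.4 to 134 CPM and 101.3 to 185 CPM, with 4 of 6 at 0 in Tead1/2 control 2. Skeletal muscle genes rose in mutant members too, with 24 called for the mean of both effects. The endothelial gene Flt1 was also called higher, but did not keep the call without each library. The part of any of these cell types in these rises was not tested.

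Nes and Bcan were also called in barcodes outside the members. Nes rose by 2.64 in Insm1 and by 3.36 in Tead1/2 mutants on the log2 scale in the other barcodes, and by 0.78 and 0.89 in astrocyte-like barcodes (adjusted p = 0.011 and 0.0059). Bcan rose by 1.01 and 1.02 in the other barcodes and by 0.52 and 0.39 in astrocyte-like barcodes, and all 4 were called. Nid1 rose by 0.76 and 0.87 in the other barcodes and had changes of 0.25 and 0.20 in astrocyte-like barcodes (adjusted p = 0.073 and 0.14). Kcnn3, a calcium-activated potassium channel that marks the members, went from 178 and 199 to 341, 306 and 281 CPM with Insm1 loss and from 121 and 54.2 to 163, 157 and 157 CPM with Tead1/2 loss, without overlap (0.72 ± 0.14, adjusted p = 0.0031, and 0.89 in members with at least 5 markers). With no limiting gene it missed the threshold (adjusted p = 0.73). In astrocyte-like barcodes Kcnn3 rose by 0.51 and 0.39.

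**Figure D4:**
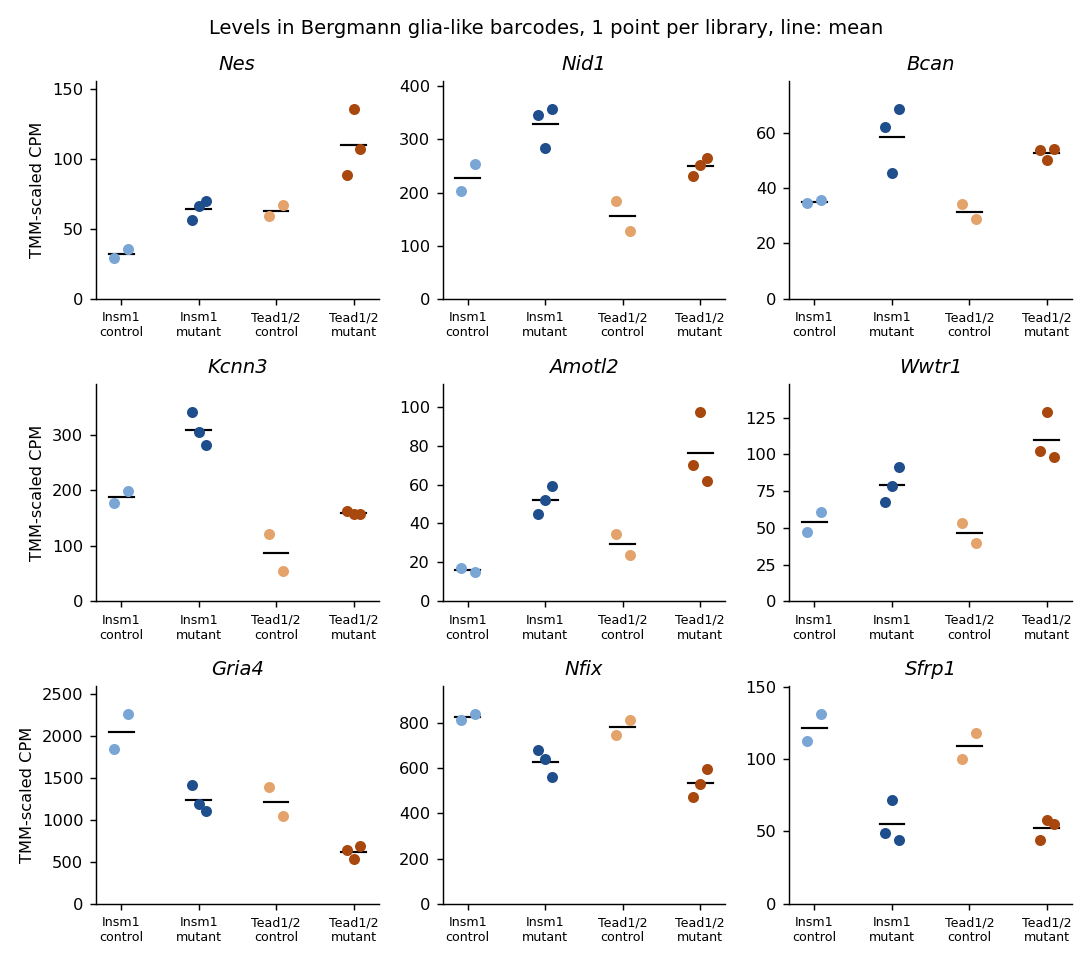
Levels of 9 genes in Bergmann glia-like barcodes (y axes, TMM-scaled CPM from 0), 1 point per P7 library in each of the 4 groups, with lines at the group means. In each panel the mutants of an allele lie on 1 side of its controls: above for Nes, Nid1, Bcan, Kcnn3, Amotl2 and Wwtr1, and below for Gria4, Nfix and Sfrp1. The 9 genes were picked with their values known, and the share of all genes with such separation is not given.

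Hippo pathway genes were called 5 of 13 higher and 1 of 13 lower for the mean of both effects (median 0.42), against 5.53% and 4.31% of all genes. The 5 that rose, Tead1, Tead4, Yap1, Wwtr1 and Amotl2, each kept the call without any 1 library, and the 1 that fell was the deleted Tead2. In members with at least 5 markers, 3 of 11 were called higher (Tead1, Tead4 and Amotl2) and 0 lower. Amotl2, an angiomotin that binds YAP and is a known target of YAP and TEAD, went from 16.9 and 15.2 to 44.9, 51.8 and 59.1 CPM with Insm1 loss and from 34.8 and 23.9 to 69.8, 97.3 and 61.7 CPM with Tead1/2 loss. The groups did not overlap (1.495 ± 0.17, adjusted p = 4.1e-05), and the rise was called under each choice of members tried (at least 4 or 5 markers, no limiting gene, at most 10000 UMIs, no high doublet scores). Wwtr1, which encodes TAZ, went from 47.4 and 60.8 to 67.6, 78.7 and 91.6 CPM and from 53.55 and 39.8 to 102.5, 129 and 98.5 CPM (0.86 ± 0.13, adjusted p = 7.4e-04), but it missed the threshold with at least 4 markers (adjusted p = 0.056), with at least 5 (0.32, adjusted p = 0.37) and without the highest doublet scores (adjusted p = 0.062). Yap1, the co-activator itself (0.46 ± 0.10, adjusted p = 0.0067), missed the threshold with at least 4 markers (0.44, adjusted p = 0.056) and with at least 5 (0.36, adjusted p = 0.18). It also missed it at 10000 UMIs or fewer (0.27, adjusted p = 0.65) and without the highest doublet scores (0.32, adjusted p = 0.18). Tead4, a TEAD of the muscle lineage among others, stood at 0.82 and 1.11 CPM in Insm1 controls and 0.57 and 0 CPM in Tead1/2 controls, and at 11.25 to 17.4 and 15.9 to 43.3 CPM in the mutants. Amotl2 also rose in astrocyte-like barcodes, by 1.28 and 0.71, and in the other barcodes by 1.72 and 1.66. In microglia-like barcodes its log2 change was 1.35 (adjusted p = 0.080) and 1.47 (adjusted p = 0.012).

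Of the Notch genes, 4 of 14 rose and 1 fell (median 0.23), against 5.53% and 4.31% of all genes. The receptor Notch2 (0.57 ± 0.11, adjusted p = 0.0028) and the ligand Jag1 (0.89 ± 0.19, adjusted p = 0.0066) kept their call without each library, and the other 3 lost it. Neither passed in members with at least 5 markers, at 0.25 (adjusted p = 0.40) and 0.53 (adjusted p = 0.21), with at least 4 (adjusted p = 0.12 and 0.078) or at 10000 UMIs or fewer (adjusted p = 0.70 and 0.76). Notch2 also missed the threshold without the highest doublet scores (adjusted p = 0.21). In the other barcodes Jag1 rose by 1.92 and 2.22. Among Sonic hedgehog genes, 1 of 11 rose and 1 fell, near the 5.53% and 4.31% of all genes. Gli2, the activator of the pathway in cerebellar glia and granule progenitors, was lower (-0.48 ± 0.10, adjusted p = 0.0041), with -0.18 (adjusted p = 0.39) at 5 or more markers. Cdon, a co-receptor that also acts in myoblasts, was higher (1.63 ± 0.22, adjusted p = 1.8e-04), with 2.04 (adjusted p = 0.097) at 5 or more markers. None of 13 FGF and ERK genes passed.

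Glutamate uptake and glial receptor genes gave 1 rise and 2 falls among 16 tested (median 0.14), against 4.31% of all genes lower. Both falls were subunits of AMPA receptors, the glutamate-gated channels. Gria4 stood at 1838 and 2256 CPM in Insm1 controls and at 1420, 1184 and 1100 CPM in Insm1 mutants, and at 1386 and 1047 CPM in Tead1/2 controls and at 636, 537 and 693 CPM in Tead1/2 mutants. Every mutant was below every control of its allele (-0.85 ± 0.11, adjusted p = 1.4e-04), and the call held under each choice of members named above. Gria2, the subunit that limits calcium entry and that Bergmann glia receptors are known to lack, went from 520 and 634 to 407, 373 and 439 CPM and from 456 and 397 to 265, 306 and 276 CPM (-0.55 ± 0.09, adjusted p = 7.6e-04), with -0.34 (adjusted p = 0.31) at 10000 UMIs or fewer and adjusted p = 0.091 at 4 or more markers. Gria4 and Gria2 are also expressed by neurons. Gria4 fell by 1.22 and 1.57 in the other barcodes, by 0.68 and 0.89 in astrocyte-like and by 1.73 and 1.57 in microglia-like barcodes, where adjusted p was 0.011 and 0.010.

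Glial transcription factors gave no rise and 3 falls among 15 (median 0.00), against 4.31% of all genes lower. Nfix, a nuclear factor I protein of glia and granule neurons, kept its call under each choice of members and without each library. It stood at 813 and 839 CPM in Insm1 controls and at 683, 640 and 563 CPM in Insm1 mutants, and went from 748 and 816 to 472, 531 and 599 CPM with Tead1/2 loss (-0.47 ± 0.09, adjusted p = 0.0024). The other barcodes fell by 0.44 and 0.57. Secreted factors gave 2 rises and 2 falls among 16, against 5.53% and 4.31% of all genes. Sfrp1, a Wnt antagonist, went from 112.5 and 131 to 48.7, 71.9 and 44.0 CPM and from 100.3 and 118 to 44.2, 57.9 and 55.4 CPM, with no overlap (-1.07 ± 0.14, adjusted p = 1.2e-04, and -1.83 in members with at least 5 markers). It missed the threshold at 10000 UMIs or fewer (-0.31, adjusted p = 0.74). Sfrp1 also fell in astrocyte-like barcodes, by 1.65 and 2.19, and in microglia-like barcodes, by 2.00 and 1.64.

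Genes of the INSM1 corepressor complex gave 4 falls among 10, against 4.31% of all genes lower. The 4 include Insm1 itself, the gene deleted in the Insm1 mutants. They also include Kdm1a, which did not keep its call without each library. Besides Insm1, Rcor2, a CoREST subunit, was lower (-1.06 ± 0.13, adjusted p = 1.2e-04), as was Gse1 (-0.47 ± 0.08, adjusted p = 0.0020). Gse1 missed the threshold at 10000 UMIs or fewer (-0.40, adjusted p = 0.11) and with no limiting gene (-0.44, adjusted p = 0.079). Reactive gliosis genes gave 3 rises among 8 tested and no fall, against 5.53% of all genes higher. Of the 18 listed, 9 were not tested, and 0 of the 3 rises kept the call without each library. Among them Stat3, a mediator of gliosis, stood at 82.4 and 83.4 CPM in Insm1 controls and at 128, 136 and 155 CPM in Insm1 mutants (0.75 ± 0.14, adjusted p = 0.0051), while 109 and 139 CPM in Tead1/2 controls overlapped 121, 149 and 136 CPM in the mutants. Its Insm1 call was lost without either Insm1 control (highest adjusted p = 0.075), at 10000 UMIs or fewer (0.45), with no limiting gene (0.13) and without the highest doublet scores (0.30). Among lipid synthesis genes 1 of 17 fell, and among glycolysis genes 1 of 13 rose, against 4.31% and 5.53% of all genes. None of 11 immediate early and heat shock genes, 15 DNA replication genes or 12 mitochondrial respiration genes passed.

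Mitosis genes gave 6 falls and no rise among 18 (median -0.41), against 4.31% of all genes lower. None of the 6 kept the call without each library. After thinning to 2000 UMIs, UMIs of 3 or more of the 18 genes were found in 29.8% and 32.9% of members of the Insm1 controls and in 21.3%, 24.8% and 29.4% of the Insm1 mutants, which did not overlap. For Tead1/2 the shares were 34.5% and 47.3% in controls and 31.1%, 34.3% and 35.4% in mutants, which overlapped. The mean difference was -6.75 points (two-sided exact permutation within alleles, p = 0.05, smallest possible 0.01), and -4.61 points (exact permutation p = 0.27) with at most 10000 UMIs. Without 1 library it ran from -9.94 points (without Tead1/2 control 1, exact permutation p = 0.025) to -3.56 points (without Tead1/2 control 2, exact permutation p = 0.125). It was -7.81 points (exact permutation p = 0.0333) without Insm1 mutant 3 and -5.97 points (exact permutation p = 0.15) without Insm1 control 2. Unthinned shares were 49.0% to 69.6% in controls and 39.4% to 56.2% in mutants. The same share differed by -12.4 points in the other barcodes and by -8.32 points in astrocyte-like barcodes (exact permutation p = 0.01 in both, the smallest possible), by -14.2 points in endothelial-like barcodes (exact permutation p = 0.01) and by -5.37 points in microglia-like barcodes (exact permutation p = 0.06). Granule progenitor markers, which include the cycling gene Mki67, summed to 1041 to 1422 CPM in control members and 963 to 1092 CPM in mutant members, and their part in the share was not tested.

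Of the lists examined, skeletal muscle genes had the largest share of members' calls. Of 25 muscle genes tested, 24 rose and none fell for the mean of both effects, against 5.53% of all genes higher. In Insm1 mutants 15 of 25 rose and in Tead1/2 mutants 23 of 25. For the mean of both effects, 22 kept the call without each library. Ttn, the sarcomere protein titin, stood at 42.4 and 48.2 CPM in Insm1 controls and at 819, 980 and 938 CPM in Insm1 mutants. In Tead1/2 controls it stood at 38.2 and 44.6 CPM and in the mutants at 4530, 3879 and 1827 CPM (mean log2 change 5.36 ± 0.25, adjusted p = 7.0e-08). Myog, the muscle regulator myogenin, was at 0 CPM in 3 of the 4 controls and 1.71 CPM in Tead1/2 control 1, and at 24.65 to 46.3 CPM in the 6 mutants. Outside the list, the muscle long noncoding RNA Lincmd1 (5.91 ± 0.35, adjusted p = 4.3e-07), the growth inhibitor Cdkn1c (3.37 ± 0.28, adjusted p = 3.1e-06) and the imprinted RNA H19 (3.88 ± 0.33, adjusted p = 5.1e-06) rose.

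The muscle transcripts were not confined to members. The 28 genes summed to 148 to 165 CPM in control members, 1337 to 1776 CPM in Insm1 mutant members and 3229 to 7555 CPM in Tead1/2 mutant members. In the other barcodes the sums were 182 to 229, 4459 to 4951 and 9930 to 13670.2 CPM, so mutant members held 0.2999 to 0.553 of their library's level. Near-empty barcodes of at most 100 UMIs held 1268 to 2967 CPM in controls, 8148 to 9170 CPM in Insm1 mutants and 15508.1 to 23920.2 CPM in Tead1/2 mutants. After thinning, UMIs of 3 or more muscle genes were found in 0.41% and 0.31% of control members and 5.75%, 8.02% and 9.63% of mutant members for Insm1. For Tead1/2 the shares were 0.60% and 0% (0 of 55 barcodes allows up to 5.45%) against 17.9%, 22.1% and 9.39%. No mutant overlapped a control. The difference was 11.8 points (two-sided exact permutation within alleles, p = 0.01, the smallest possible). In microglia-like barcodes, which should lack muscle transcripts apart from Mef2c, the means went from 2.63% to 8.39% and from 1.86% to 16.25% (difference 10.1 points, exact permutation p = 0.01), against 0.358% to 7.80% and 0.298% to 16.5% in members. In endothelial-like barcodes the means went from 1.85% to 6.01% and from 3.00% to 8.18% (difference 4.67 points, exact permutation p = 0.1, which did not pass). In astrocyte-like barcodes they went from 0% to 5.25% and from 0.563% to 7.25% (difference 5.97 points, exact permutation p = 0.01). As a ratio to the other barcodes' summed level, the list stood in Insm1 mutants at 0.2999 to 0.386 in members, 0.465 to 1.24 in microglia-like, 0.185 to 0.421 in astrocyte-like and 0.230 to 0.341 in endothelial-like barcodes. In Tead1/2 mutants it stood at 0.325 to 0.553, 0.452 to 0.584, 0.176 to 0.197 and 0.058 to 0.179 in the same order. Mef2c, which microglia express, is in these sums and shares. The median ratio over single muscle genes, less moved by 1 gene, was 0.272 to 0.371 in members and 0.107 to 0.952 in microglia-like barcodes of Insm1 mutants, and 0.317 to 0.602 and 0.310 to 0.339 in Tead1/2 mutants. The order of the sets thus differed between the alleles and the measures. Whether these transcripts in members came from free RNA, from doublets or from the cells themselves was not tested. Unthinned, the shares were 6.83% to 7.51% in control members and 24% to 61.8% in mutant members.

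**Figure D5:**
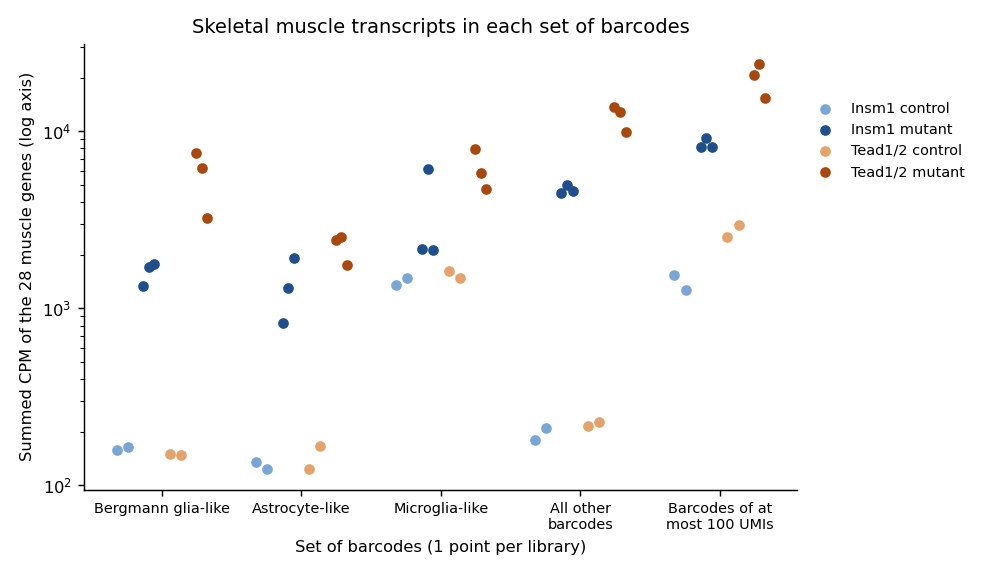
Summed level of the 28 skeletal muscle genes (y axis, CPM, log scale) in 5 sets of barcodes, 1 point per P7 library, coloured by group. Mutants lie above controls in members (1337 to 7555 against 148 to 165 CPM) and in near-empty barcodes (8148 to 23920.2 against 1268 to 2967 CPM).

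Of 10 granule neuron genes tested in members, 5 fell, none rose and the other 5 did not pass (median -0.32, highest 0.17). Of all genes, 4.31% were lower. All 5 that fell kept the call without each library. Neurod1, a granule neuron transcription factor, went from 296 and 273 to 141, 143 and 136 CPM and from 199 and 186 to 73.3, 124 and 82.2 CPM (-1.03 ± 0.12, adjusted p = 4.2e-05), and its log2 change was -0.97 and -1.21 in the other barcodes and -1.12 and -1.48 in microglia-like barcodes. Nrg1, a ligand of ErbB receptors that granule neurons make, fell from 1231 and 1336 to 379, 362 and 207.5 CPM and from 1057 and 714 to 233, 193 and 257 CPM (-1.99 ± 0.15, adjusted p = 2.0e-06). In microglia-like barcodes Nrg1 changed by -2.88 and -2.38. Lhx1, a transcription factor of Purkinje cells and interneurons, was lower too (-1.53 ± 0.13, adjusted p = 5.6e-06). Among markers of other types, 2 of 8 interneuron, 1 of 5 Purkinje cell and 3 of 8 granule progenitor genes fell. Rises were found for 1 of 7 oligodendrocyte lineage, 1 of 6 endothelial and 1 of 5 mural genes. Of 3 unipolar brush cell genes 1 rose and 1 fell, and none of 5 microglia, 5 fibroblast or 3 ependymal genes passed. Over all genes, 5.53% rose and 4.31% fell.

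No gene was called for the difference between the Insm1 and Tead1/2 effects in members by edgeR (0.0% of 12313, 816 at an unadjusted p under 0.05, smallest adjusted p = 0.17), and DESeq2 called 23. With edgeR, a replicate block by dissection gave 63 calls, a block by library number 79, and the fit without Insm1 mutant 1 gave 19. Slit3, a guidance ligand, had the smallest adjusted p. It rose in Insm1 mutants from 11.5 and 11.9 to 198.5, 180 and 140 CPM (3.88 ± 0.35, adjusted p = 5.0e-05), and stood at 87.7 and 22.3 against 139, 97.3 and 121 CPM in the Tead1/2 libraries (0.88 ± 0.31, adjusted p = 0.12), a difference of 2.99 ± 0.48. Chrna3, a nicotinic receptor subunit, fell in Tead1/2 mutants (-3.59 ± 0.48, adjusted p = 4.8e-04) and had a log2 change of -0.66 (adjusted p = 0.33) in Insm1 mutants. Its Tead1/2 change missed the threshold with 5 or more markers (-2.42, adjusted p = 0.20) and at 10000 UMIs or fewer (-4.05, adjusted p = 0.0996).

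Where the mutant effect in members differed from that in the other barcodes of the same libraries was tested as an interaction over 19298 genes, with library as a block. Changes within each set come from fits of their own, so their difference can depart slightly from the interaction value. For Insm1, 324 genes were called (1.68%), 298 (1.54%) with a lower and 26 (0.135%) with a higher log2 change in members, and for Tead1/2, 414 (2.15%), 327 (1.69%) lower and 87 (0.451%) higher. Without 1 library at a time, the number higher ran from 8 (without Insm1 mutant 2) to 60 (without Tead1/2 control 1) for Insm1 and from 62 (without Tead1/2 mutant 2) to 220 (without Insm1 control 1) for Tead1/2. With only barcodes that held none of the 6 markers as the others, the counts were 322 lower and 91 higher for Insm1, and 396 and 184 for Tead1/2. The first count was 213 without Insm1 control 1, and the second was 626 and 661 without Insm1 control 1 and 2 and 246 without Tead1/2 control 1. Nes rose less in members by 1.67 in Insm1 and by 2.52 in Tead1/2 mutants. Its other-barcode level was 7.54 and 10.4 CPM in controls, against 32.4 and 63.1 CPM in members. Egfem1, an EGF-like membrane protein gene, and Dach1, a transcriptional cofactor, fell in the other barcodes and less in members. Egfem1 changed by -1.55 in other barcodes and -0.20 in members of Insm1 mutants (difference 1.34 ± 0.15, adjusted p = 7.3e-06) and by -1.43 and -0.22 in Tead1/2 mutants (1.21 ± 0.16, adjusted p = 4.0e-05). Ptn, the secreted factor pleiotrophin, changed by 0.18 in members and -0.74 in the other barcodes of Tead1/2 mutants (0.89 ± 0.12, adjusted p = 5.8e-05). Bmp5, a bone morphogenetic protein, changed by 0.57 and -1.16 (1.67 ± 0.26, adjusted p = 3.6e-04).

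Whole-cerebellum RNA at P2, in libraries that the rule did not use, was tested for the same markers. In bulk RNA, fewer cells of a type and less RNA per cell cannot be told apart. Insm1 loss gave 135 calls of 19582 (0.689%, 94 or 0.48% higher and 41 or 0.209% lower), and 64 to 132 without 1 library (64, 74 and 72 without control 1, 3 or 4, and 83 and 67 without mutant 2 or 4). None of the 6 markers was among them, with log2 changes of 0.12 for Gdf10 (154 ± 12.7 CPM, SD, n = 4, in controls and 167 ± 4.44, n = 4, in mutants), 0.27 for Fabp7, 0.12 for Aldh1l1, 0.11 for Slc1a3, -0.03 for Tnc and -0.08 for Gria1, at adjusted p from 0.62 to 0.93. Insm1 itself fell by 1.92 (adjusted p = 0.019). For Tead1/2, the library labelled Tead1/2 mutant 4 went against its label: Actc1, a muscle actin, was at 0.95 CPM there, 28.9 to 44.1 CPM in the other 3 mutants and 0.60 to 0.83 CPM in controls, and Tead2 was at 25.7 CPM there, 17.3 to 19.4 CPM in the other mutants and 22.3 to 25.6 CPM in controls. With it, edgeR called 0 of 20247 genes (0.0%, 4052 at an unadjusted p under 0.05, DESeq2 971), and without it 646. With that library kept, 14 and 20 genes were called without control 2 or 3, and 1 without mutant 1 or 3. Fabp7 was at 890, 922 and 937 CPM in controls and 1281, 1104, 1075 and 1005 CPM in mutants, without overlap. Its log2 change was 0.28 (adjusted p = 0.11) with that library and 0.33 (adjusted p = 0.040) without it. The other 5 markers had adjusted p of 0.31 or more without it.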

How the data were processed

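P7 libraries were single-cell UMI count matrices deposited by the authors (raw counts per gene and barcode), and P2 bulk libraries were deposited RSEM expected counts from total RNA, rounded here to whole numbers. Per the submitters' processing notes STAR 2.7.9a, RSEM 1.3.3 and Seurat 4.4.0 were used and the builds GRCm38.p6 and mm10 are named, with no role for each. The 92 spike-in rows were left out, and bulk columns were assigned to samples by column name, although the names of the 2 deposited bulk tables give the opposite allele. Membership rules, class markers and gene lists were chosen with earlier results of these data known.

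UMIs were summed per library over members and tested with edgeR 4.0.16 (quasi-likelihood, TMM, filterByExpr, R 4.3.3) over 4 genotype groups, with Benjamini-Hochberg adjusted p under 0.05 called. Members against other barcodes used library as a block. Shares used exact permutation of libraries within alleles after thinning to 2000 UMIs. Replicates were separate pups at P7. DESeq2 1.42.0, other filters, other membership limits and each library left out were alternatives, as were 5 or more markers and doublet scores, both chosen after seeing the data. A fit that leaves 1 control assumes it varies like the other groups. The script was tested on simulated data.

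Genes named were the rule genes, the deleted genes, the 15 highest ratios, the 5 highest phi, the 10 largest called rises and falls and the 4 smallest p per list. The largest rises and falls were taken among genes of at least 20 CPM without overlap, so their lack of overlap is a condition. Of these, the text gives values mainly for genes called without each library in turn, a choice made after their values were seen. Genes named for the comparison with the other barcodes were picked by no such rule. Rule genes were left out of list counts. Intervals and limits from a count of 0 cover counting error only.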

Additional observations from a re-analysis of the deposited data

Results flagged for a closer look

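The mutant effect differed between members and the other barcodes of the same libraries for 324 genes in Insm1 and 414 in Tead1/2 mutants (edgeR interaction, adjusted p under 0.05). Differences below are log2 changes in members minus those in the others. In Insm1 mutants they were -3.04 for Pkhd1, -1.67 for Nes, -1.38 for Ttn, -1.36 for Jag1, -1.04 for Wwtr1 and -0.71 for Stat3, and positive for Egfem1 (1.34) and Dach1 (0.58). In Tead1/2 mutants they were -3.38 for Pkhd1, -2.52 for Nes, -1.12 for Wwtr1, -1.085 for Jag1, -1.02 for Stat3 and -0.61 for Tead1, and positive for Bmp5 (1.67), Egfem1 (1.21), Ptn (0.89) and Dach1 (0.81). Without Tead1/2 control 1, the Tead1/2 calls of Pkhd1 (adjusted p = 0.72), Jag1 (0.64) and Wwtr1 (0.12) were lost.

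Barcodes of at most 100 UMIs, which entered no test, held muscle transcripts above the controls' 1268 to 2967 CPM. The lowest Insm1 mutant library stood at 8148 CPM and the lowest Tead1/2 mutant library at 15508.1 CPM.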

How the results depend on the processing

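Calls in members for Insm1, Tead1/2 and the mean effect were 229, 254 and 632 with 4 or more markers, 233, 302 and 620 with 5 or more, 119, 72 and 274 at 10000 UMIs or fewer, 232, 323 and 710 with no limiting gene, and 114, 277 and 601 without the highest doublet scores. With no filter on low counts the first 2 were 865 and 1395. The cause of these moves was not tested, but the first 5 settings hold fewer barcodes. The difference between alleles gave 3 calls with 5 or more markers, 23 with DESeq2, 8 with membership after thinning, 268 with no filter and 1 with a sex term. With a replicate block by dissection it gave 63 and by library number 79, while the mean effect gave 1278 and 1177, Insm1 429 and 456, and Tead1/2 964 and 884. Numbers were not taken as pairs. Same-numbered P7 libraries deviated together with correlations of -0.07 to 0.17. These cannot exclude a shared factor such as dissection, because deviations within a group of 2 libraries mirror each other. Bulk counts were 315 (Insm1) and 971 (Tead1/2) with DESeq2, 212 and 1287 with no filter, and 64 and 236 with the replicate block. The cycling share without thinning was -8.50 points (exact permutation p = 0.02).

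Without 1 library at a time, calls ran from 191 to 481 (Insm1), 403 to 814 (Tead1/2), 816 to 1205 (mean), 0 to 19 (difference), 213 to 430 and 246 to 661 (against others), and 64 to 132 and 0 to 646 (bulk). Share differences ran from 0.479 to 2.21 points (Insm1), 0.0849 to 0.890 (Tead1/2), 0.483 to 1.35 (both), 10.4 to 13.6 (muscle) and -9.94 to -3.56 (cycling). For 75 named results and 1545 values, 1458 kept direction and side of the threshold, 87 lost the call and 0 reversed. Many of these results were named because they kept the call without each library, and those fits are among the values. The tally therefore cannot measure how stable calls are in general. Leaving out Scrublet's own calls was not run, because its threshold marked 0 barcodes in 2 libraries. Members with few markers and 56 members in Tead1/2 control 2 limit what the depth can show.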
